A study of Homo sapiens with 6 samples.

Results

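Secreted chemokines were examined in thyroid cancer cells with and without siRNA against GDF15. The 8 genes were CXCL1, CXCL2, CXCL3, CXCL5, CXCL8, CXCL16, CCL2 and CCL20, taken by gene name from a table of 34738 genes, and all 8 were found there. All 6 libraries were labelled as the thyroid cancer cell line KHM-5M, whereas a figure legend of the study's paper names TPC-1 cells. The siGDF15 group (3 libraries) was transfected with a siRNA against GDF15, a secreted stress-responsive cytokine of the TGF-β family. For the NC group (3 libraries), the methods name negative control cells and list a negative control siRNA, whereas the deposited design names a blank control. If the control was blank, an effect of transfection itself cannot be told apart from that of the siRNA. With either control, the paper lists a single siRNA sequence against GDF15. An effect particular to that sequence cannot be told apart from one of lower GDF15. The time between transfection and harvest was not given in the sources used here. Poly(A) RNA was sequenced as read pairs of 150 bases.

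Chemokines are small secreted proteins that bind G protein-coupled receptors on leukocytes and other cells and direct their migration. CXCL1, CXCL2, CXCL3, CXCL5 and CXCL8 carry a Glu-Leu-Arg motif before the first cysteines, bind CXCR2 (CXCL8 also CXCR1) and attract neutrophils. CCL2 attracts monocytes through CCR2, CCL20 attracts lymphocytes and dendritic cells through CCR6, and CXCL16 is made as a membrane protein that is shed and binds CXCR6. Several of these genes are induced by interleukin-1 and tumor necrosis factor through NF-κB. They belong to the senescence-associated secretory phenotype (SASP), the mixture of factors that senescent cells release.

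Sequences just upstream of the RefSeq starts of CXC genes on chromosome 4 are shown because these neighbouring genes differed in how far they moved. RefSeq promoter windows (GRCh38.p14) were matched for 6 of the 8 genes, the exceptions being CXCL16 and CCL2. The 150 bases before each RefSeq start site are written 5′ to 3′ on the strand of the gene. Capitals mark exact matches to a single form of the NF-κB motif, GGAATTTCC, searched on both strands. The windows are chr4:73869243-73869392 on the plus strand for CXCL1, chr4:74099196-74099345 on the minus strand for CXCL2, chr4:74038690-74038839 on the minus strand for CXCL3 and chr4:73740419-73740568 on the plus strand for CXCL8. The RefSeq starts of CXCL3 (74038689), CXCL8 (73740569) and CCL20 (227813842) lay inside these genes as positioned in the deposited data, so their windows overlapped the deposited genes.
CXCL1: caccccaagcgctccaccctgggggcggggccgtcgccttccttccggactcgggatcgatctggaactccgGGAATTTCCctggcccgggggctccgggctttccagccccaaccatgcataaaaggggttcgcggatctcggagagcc
CXCL2: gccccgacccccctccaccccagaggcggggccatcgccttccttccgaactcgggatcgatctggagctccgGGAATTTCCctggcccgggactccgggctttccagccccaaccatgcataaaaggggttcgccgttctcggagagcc
CXCL3: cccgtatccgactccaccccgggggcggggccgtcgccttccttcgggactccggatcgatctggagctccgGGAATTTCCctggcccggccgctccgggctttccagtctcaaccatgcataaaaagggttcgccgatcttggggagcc
CXCL8: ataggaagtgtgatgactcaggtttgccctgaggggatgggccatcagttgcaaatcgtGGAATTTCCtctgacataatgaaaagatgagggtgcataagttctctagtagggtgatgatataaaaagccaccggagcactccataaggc
The window of CXCL5 (chr4:73998678-73998827, minus strand) also held 1 match, and that of CCL20 held no match to this exact sequence. Other forms of the NF-κB motif were not searched for, so whether CCL20 has one was not tested. The match began 78 bases before the start site in CXCL1 and CXCL3, 77 in CXCL2, 90 in CXCL5 and 91 in CXCL8. The same motif was present in 162 of 35116 RefSeq promoter windows that run from 250 bases before to 50 after a start (0.461%). The upstream windows of CXCL1 and CXCL2 were 88.8% identical in a global alignment with a longest shared run of 42 bases, and CXCL1 and CXCL3 were 88.1% identical. CXCL1 and CXCL8 were 45.5% identical, with a longest shared run of 9 bases. The CXCL8 window alone of these 6 held a match to the AP-1 motif TGANTCA, beginning 137 bases before the start site. That motif was found in 7.71% of all promoter windows. A match describes the letters and was not taken as a bound site. Of the 39 tested genes with this exact motif in their window, 13 (33.3%) were called higher in siGDF15 and 12 lower. The 13 include CXCL1, CXCL2 and CXCL8, so this share is not independent of the chemokines examined. Among the 8823 tested genes with a promoter window 30.4% were called higher, and 31.4% of all tested genes were called lower.

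GDF15 itself was expressed at 22.4, 19.3 and 23.1 FPKM in NC replicates 1 to 3 and at 10.8, 10.5 and 10.7 FPKM in siGDF15 replicates 1 to 3, where FPKM is the number of fragments per kilobase of transcript, scaled to the mapped fragments of the library. The knockdown was partial, at a log2 fold change of -0.92 ± 0.079 (SE) with an edgeR-adjusted p of 2.4e-05. Total expected counts ranged from 67569576 to 68025163 for NC and from 51738814 to 67793417 for siGDF15, with the lowest total in siGDF15 replicate 2. About 4 counts corresponded to 1 read pair. The mitochondrial genome held 6.39 to 6.78% of counts in NC and 8.53 to 9.17% in siGDF15, and whether this difference bears on the chemokine values was not tested. Among thyroid markers, FOXE1 had means of 2.76 ± 0.208 (SD) FPKM in NC and 2.83 ± 0.162 (SD) FPKM in siGDF15. PAX8 had 59.1 ± 5.33 (SD) FPKM in NC and 79.4 ± 1.70 (SD) FPKM in siGDF15, and was called higher (log2 fold change 0.53, edgeR-adjusted p of 1.2e-04). TG was low, at 0.059, 0.0708 and 0.0346 FPKM in NC and at 0.162, 0.177 and 0.219 FPKM in siGDF15. Its groups did not overlap, at 7.2 to 15 read pairs a library in NC and 29 to 46.5 in siGDF15, and it was not tested. NKX2-1 and SLC5A5 were at or near 0, with means of at most 0.0136 FPKM in NC and 0.0235 FPKM in siGDF15. Summed FPKM of the leukocyte markers found (PTPRC, CD14, LYZ and CD3E) was 0.107 to 0.256 in NC and 0.607 to 0.827 in siGDF15. Most of this was CD14, and PTPRC, the defining leukocyte marker, had a mean of 0.00228 FPKM in NC and 0 in siGDF15. Endothelial markers summed to 0.0888 to 0.14 FPKM in NC and 0.125 to 0.198 FPKM in siGDF15, and the fibroblast marker COL1A1 had means of 5.66 and 5.50 FPKM. The part of these markers in the chemokine values was not tested.

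To examine how chemokine transcripts differed after GDF15 knockdown, siGDF15 was compared with NC by edgeR's quasi-likelihood test over 11867 genes with a mean of at least 1 FPKM, with Benjamini-Hochberg adjustment. CXCL1, CXCL2 and CCL2 rose about as much as one another, CXCL8 rose little and with a call that depended on the settings, and CXCL16 did not pass the test. CXCL3, CXCL5 and CCL20 had a mean under 1 FPKM and are given as FPKM without a test. Of the 5 tested chemokines, 4 were called higher (adjusted p under 0.05) and 0 lower, beside 30.0% of all tested genes called higher and 31.4% lower. Of all called genes 48.9% were higher, and 36.6% without TMM scaling, where 3 of the 5 chemokines were called higher. With a further minimum of 1 on the log2 fold change, 3 of the 5 were called higher, beside 3.03% of all tested genes. All 5 had an NC mean above 1 FPKM, so none entered the test through its siGDF15 level alone. Their median log2 fold change was 1.94, where that of all tested genes was 0.003. Libraries of the groups did not overlap for 5 of the 8 genes, which include the untested CXCL3. Among the 5 tested chemokines only CXCL16 overlapped, where 68.4% of all tested genes did not overlap.

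**Figure D1:**
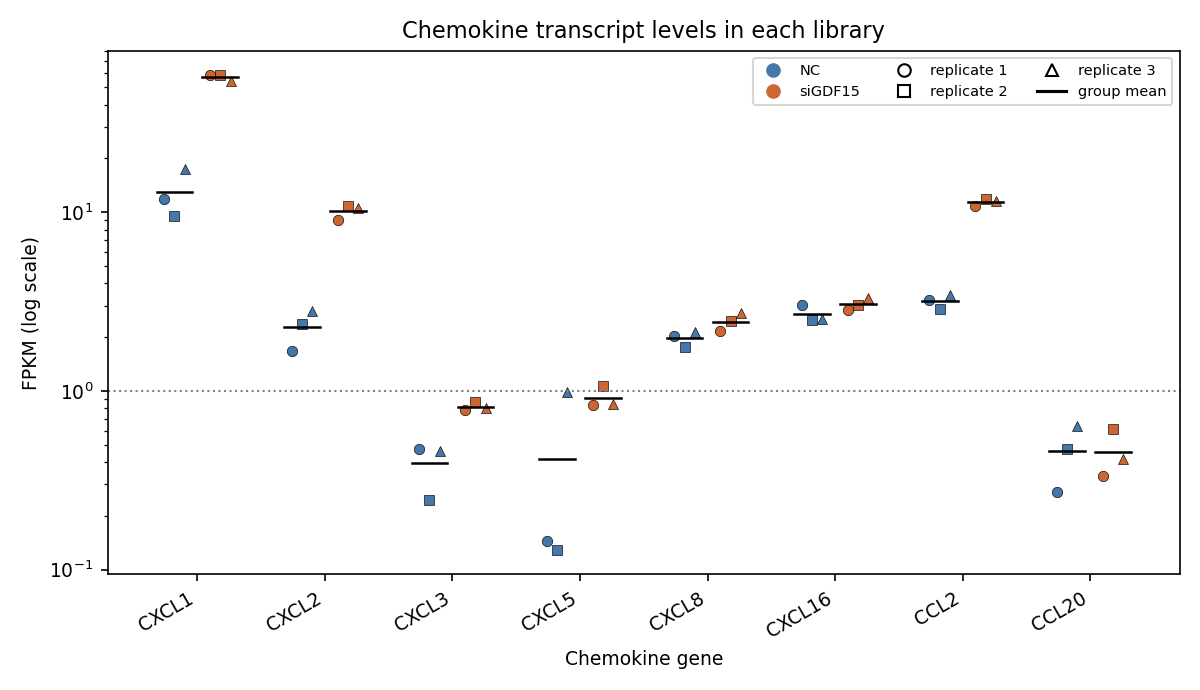
FPKM of each chemokine in each library on a log scale, with NC in blue, siGDF15 in orange, a marker shape for each replicate and a black bar at the group mean. CXCL1, CXCL2 and CCL2 lie far higher in siGDF15, CXCL8 and CXCL16 lie close together in both groups, and the dotted line marks the 1 FPKM needed for testing.

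CXCL1 (ENSG00000163739, chromosome 4 from 73869393 to 73871308, plus strand), a neutrophil attractant, was the most abundant of the 8 transcripts in every library. It was expressed at 11.8, 9.56 and 17.4 FPKM in NC and at 58.5, 59.0 and 54.3 FPKM in siGDF15. Every siGDF15 library lay more than 3 times above the highest NC library, which was replicate 3. Means (± SD over 3 libraries) were 12.9 ± 4.03 and 57.3 ± 2.62 FPKM. The log2 fold change was 2.25 ± 0.19 (SE) with an edgeR-adjusted p of 2.4e-05, a fold of 4.77 with a 95% interval from 3.50 to 6.49. Among genes called higher, CXCL1 ranked 29 by log2 fold change. In bulk RNA, more expressing cells and more RNA per cell cannot be told apart.

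CXCL2 (ENSG00000081041, chromosome 4 from 74097040 to 74099195, minus strand), a close paralog with the same receptor, was expressed at 1.67, 2.36 and 2.79 FPKM in NC and at 9.01, 10.9 and 10.5 FPKM in siGDF15. Its lowest siGDF15 library was above 3 times its highest NC library. The log2 fold change was 2.25 ± 0.19 (SE) with an edgeR-adjusted p of 1.9e-05, a fold of 4.76 with a 95% interval from 3.53 to 6.41. CXCL1 and CXCL2 therefore had near-equal folds at levels that differed per length by 57.3 against 10.1 FPKM in siGDF15.

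CXCL3 (ENSG00000163734, chromosome 4 from 74036589 to 74038807, minus strand) is the third close paralog of this group. It was expressed at 0.472, 0.245 and 0.461 FPKM in NC and at 0.779, 0.868 and 0.80 FPKM in siGDF15. All siGDF15 libraries lay above all NC libraries, at 28.2 to 33.8 read pairs each against 10.8 to 20.2. The ratio of mean FPKM was 2.08, smaller than the 4.44 and 4.45 of CXCL1 and CXCL2. The 3 paralogs share stretches of sequence, with a longest run of 97 bases common to the CXCL2 and CXCL3 transcripts of GENCODE 29 and of 77 bases common to CXCL1 and CXCL2. Of all windows of 50 bases, 5.73% in CXCL1, 9.24% in CXCL2 and 5.26% in CXCL3 occurred exactly in another of the 3, but 0% of windows of 150 bases did. How the authors' counting split reads between them is uncertain for these stretches. With the counts of the 3 genes summed into 1 feature the log2 fold change was 2.22 (adjusted p = 1.5e-05 from edgeR). Most of these counts were those of CXCL1. Counts of CXCL1, CXCL2 and CXCL3 were 1206, 177 and 81 in NC replicate 1 and 5977, 946 and 132 in siGDF15 replicate 1. The sum thus largely repeats CXCL1. It cannot show whether the changes of CXCL2 or CXCL3 depend on how reads were split.

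CXCL5 (ENSG00000163735, chromosome 4 from 73995642 to 73998677, minus strand), which epithelial cells release in inflammation, was expressed at 0.144, 0.128 and 0.984 FPKM in NC and at 0.830, 1.07 and 0.846 FPKM in siGDF15. NC replicate 3 stood apart, with 45.0 read pairs against 6.8 and 6.0 in NC replicates 1 and 2, and it lay within the siGDF15 range. The siGDF15 mean was 2.19 times the mean of all NC libraries and 6.75 times that of NC replicates 1 and 2. The size of any difference in CXCL5 thus rested on 1 library.

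CXCL8 (ENSG00000169429, chromosome 4 from 73740519 to 73743715, plus strand), interleukin-8, was expressed at 2.03, 1.77 and 2.13 FPKM in NC and at 2.16, 2.45 and 2.72 FPKM in siGDF15. The groups did not overlap, but the highest NC library and the lowest siGDF15 library were nearly equal. The log2 fold change was 0.41 ± 0.14 (SE) with an edgeR-adjusted p of 0.037, a fold of 1.33 with a 95% interval from 1.06 to 1.67. This interval did not reach the lower bounds of CXCL1 and CXCL2. The call was lost under 10 of 14 alternatives, over which the adjusted p (edgeR, DESeq2 or limma) ranged from 0.015 to 0.13. Among these were the fits without NC replicate 1 (adjusted p = 0.083), NC replicate 2 (0.091), siGDF15 replicate 2 (0.082) and siGDF15 replicate 3 (0.13), all from edgeR.

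CCL2 (ENSG00000108691, chromosome 17 from 34255274 to 34257208, plus strand), the monocyte attractant, was expressed at 3.24, 2.86 and 3.43 FPKM in NC and at 10.8, 11.8 and 11.5 FPKM in siGDF15. The 3 siGDF15 libraries lay close together and far above the NC libraries. The log2 fold change was 1.94 ± 0.097 (SE) with an edgeR-adjusted p of 1.5e-06, a fold of 3.84 with a 95% interval from 3.30 to 4.48. Its interval overlapped those of CXCL1 and CXCL2, although it lies on another chromosome.

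CXCL16 (ENSG00000161921, chromosome 17 from 4733533 to 4739928, minus strand), the membrane-anchored chemokine, was expressed at 3.01, 2.50 and 2.53 FPKM in NC and at 2.85, 3.01 and 3.30 FPKM in siGDF15. The groups overlapped. The log2 fold change was 0.29 ± 0.12 (SE) with an edgeR-adjusted p of 0.061, a fold of 1.22 with a 95% interval from 1.01 to 1.48. It passed the threshold with DESeq2 (adjusted p = 0.044) and without NC replicate 1 (adjusted p = 0.046 from edgeR), and the range over the 14 alternatives was 0.044 to 0.24.

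CCL20 (ENSG00000115009, chromosome 2 from 227805739 to 227817556, plus strand), the ligand of CCR6, was expressed at 0.271, 0.476 and 0.636 FPKM in NC and at 0.335, 0.611 and 0.417 FPKM in siGDF15. The groups overlapped throughout, with means (± SD) of 0.461 ± 0.183 and 0.454 ± 0.142 FPKM. Between 8.5 and 19.5 read pairs stood behind each value.

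**Figure D2:**
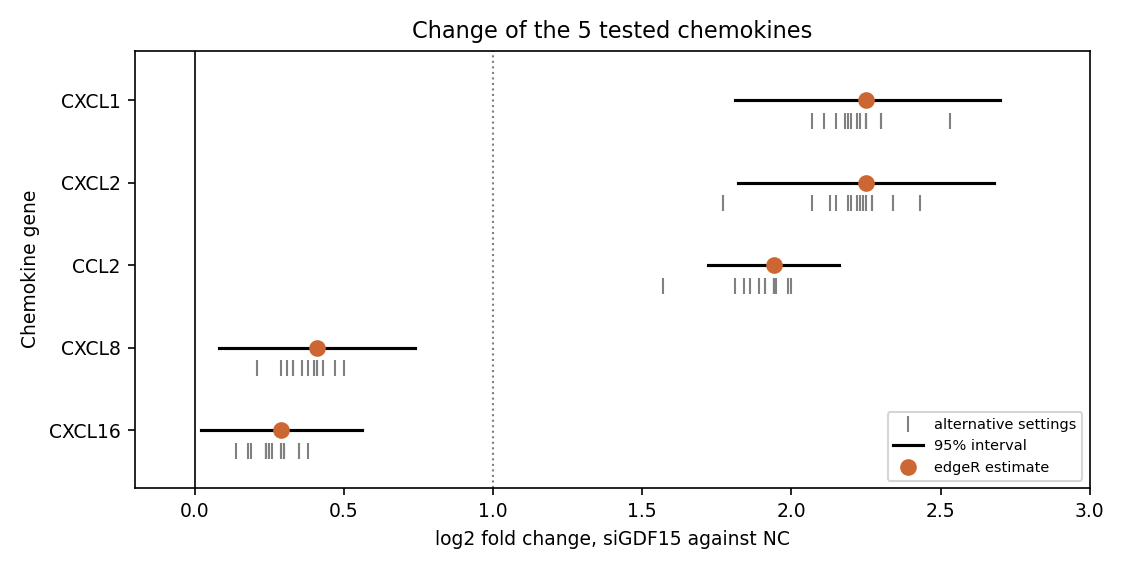
Log2 fold change of the 5 tested chemokines in siGDF15 against NC, with the edgeR estimate as a point, its 95% interval as a line and the estimates under 14 alternative settings as grey ticks. CXCL1, CXCL2 and CCL2 lie near 2, well to the right of the dotted line at 1, whereas CXCL8 (0.41) and CXCL16 (0.29) lie near 0.

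Levels were also summed and expressed as shares, for which the test could not reach 0.05. Summed over the 8 genes, levels were 22.6, 19.9 and 30.3 FPKM in NC and 85.3, 89.7 and 84.3 FPKM in siGDF15, with no overlap. An exact two-sided permutation test gave p = 0.1, which 3 libraries against 3 cannot go below. CXCL1 made up 52.5 ± 4.63% of this sum in NC and 66.3 ± 2.18% in siGDF15 (SD, n = 3). CXCL8 went from 8.29 ± 1.11% to 2.83 ± 0.359% and CXCL16 from 11.4 ± 2.69% to 3.54 ± 0.327%. These 3 shares, and those of CXCL3 and CCL20, did not overlap between groups (two-sided exact permutation p = 0.1 each, 0.16 after Benjamini-Hochberg adjustment over 8 shares). The share of CXCL2 was 9.48 ± 2.25% in NC and 11.7 ± 0.998% in siGDF15 (exact permutation test, p = 0.2). The share of CCL2 was 13.3 ± 1.75% and 13.2 ± 0.496% (exact permutation test, p = 1). Shares sum to the whole, so a larger share of 1 gene lowers the others. Without CXCL1 in the sum, the share of CXCL2 was 19.9 ± 3.96% in NC and 34.6 ± 0.906% in siGDF15, with no overlap, and that of CCL2 was 28 ± 1.71% in NC and 39 ± 1.16% in siGDF15.

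**Figure D3:**
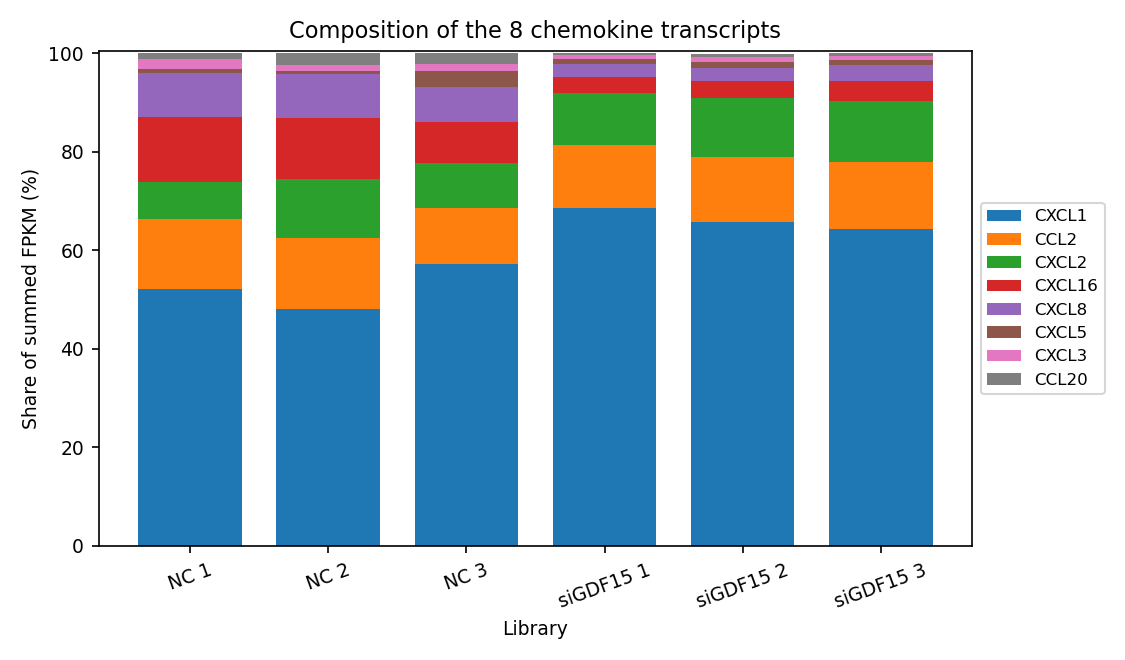
Share of each chemokine, in percent of the summed FPKM of the 8 genes, as stacked bars for each of the 6 libraries. CXCL1 takes 48.1 to 57.3% in the NC libraries and 64.3 to 68.6% in siGDF15, and the parts of CXCL16 and CXCL8 are narrower in siGDF15.

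The NC libraries were less alike than the siGDF15 libraries for several of these genes. NC replicate 3 had 1.63 times the mean of NC replicates 1 and 2 for CXCL1, 1.39 times for CXCL2, 7.26 times for CXCL5 and 1.70 times for CCL20, but 0.918 times for CXCL16. Without NC replicate 3 the log2 fold change was 2.53 for CXCL1 and 2.43 for CXCL2, both still called by edgeR. Epithelial markers were also highest in NC replicate 3 and lowest in NC replicate 2. KRT8 had 15.0, 11.3 and 21.3 FPKM and EPCAM 1.80, 1.35 and 2.41 FPKM in NC replicates 1 to 3, the same order of libraries as CXCL1. KRT18, KRT19 and CDH1 had this order too, as did CXCL5, CXCL8, CCL2 and the targeted gene GDF15. CXCL2, CXCL3, CXCL16 and CCL20 did not. Summed FPKM of the 5 epithelial markers ranged from 102 to 149 in NC and from 126 to 136 in siGDF15, and the groups overlapped. Most of this sum was KRT18. CDH1 was called higher in siGDF15 (log2 fold change 0.61, edgeR-adjusted p of 0.049) and the other 4 were not called. Its NC mean was 0.897 FPKM, so CDH1 was tested only through its siGDF15 level. Among mesenchymal markers FN1 was called higher (log2 fold change 0.47, edgeR-adjusted p of 7.9e-04), and VIM and CDH2 were not called. The part of epithelial or mesenchymal markers in the chemokine values was not tested.

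Of the 8 chemokines, 5 lie in the CXC cluster of chromosome 4, which spans 359 kb from CXCL8 to CXCL2. Levels and changes along it were uneven. CXCL8, at one end, had a ratio of mean FPKM of 1.24, and CXCL1, 129 kb away, of 4.44. Between them CXCL6, another neutrophil attractant, was at 0.321 ± 0.131 (SD) FPKM in NC and 0.346 ± 0.101 (SD) FPKM in siGDF15, with overlapping libraries. The platelet chemokine genes PF4V1 and PF4 were at or near 0. CXCL5 and CXCL3 followed at under 1 FPKM on average, and CXCL2, at the other end, had a ratio of 4.45. CXCL1 and CXCL2, which rose most, were thus not direct neighbours, and the genes between them had means under 1 FPKM in both groups.

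**Figure D4:**
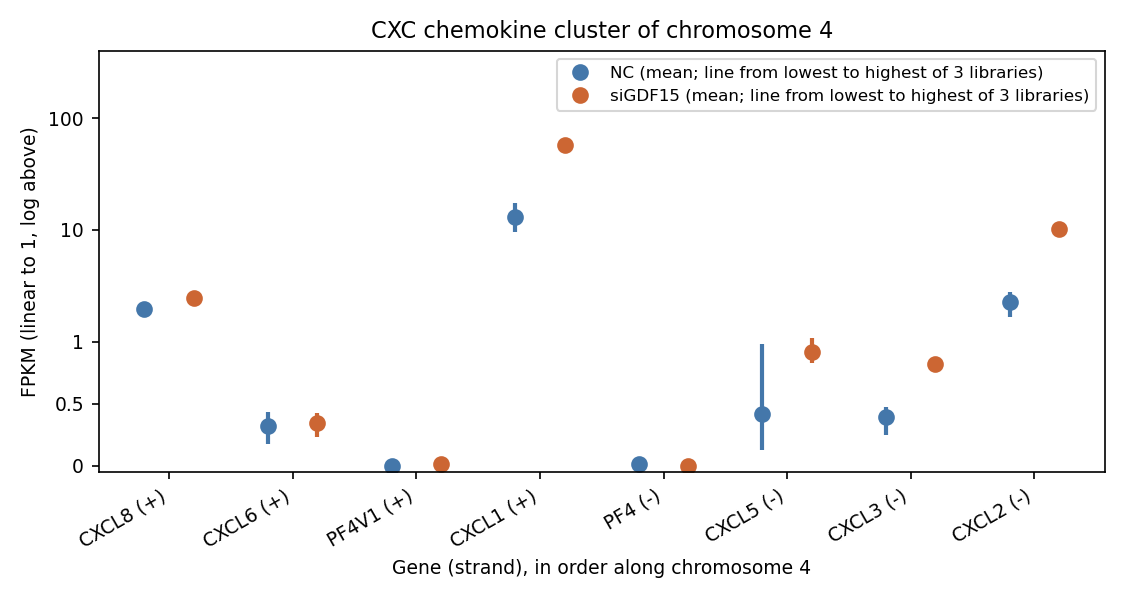
Mean FPKM of the named genes of the CXC cluster, in their order along chromosome 4, with a line from the lowest to the highest of 3 libraries in each group. CXCL1 is highest in both groups, CXCL1 and CXCL2 are far higher in siGDF15, and CXCL8 and CXCL6 are near level.

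Other chemokines were scarce. Of 28 further chemokine genes listed, 15 were found, 11 of them with a mean under 0.1 FPKM, and only CCL5 and CX3CL1 could be tested. CCL5, an attractant of T cells and monocytes, was expressed at 1.42, 1.19 and 1.64 FPKM in NC and at 1.89, 2.47 and 2.21 FPKM in siGDF15. It rose with a log2 fold change of 0.73 ± 0.19 (SE) with an edgeR-adjusted p of 0.0099. CX3CL1 had a log2 fold change of 0.05 ± 0.21 (SE) with an edgeR-adjusted p of 0.87. CCL26, an eosinophil attractant named here after its values were seen, had 0.423, 0.237 and 0.741 FPKM in NC and 1.45, 1.11 and 1.51 FPKM in siGDF15, with no overlap. It was just under the minimum for testing, so the number of these genes called higher went from 1 to 2 without NC replicate 1 or without NC replicate 2.

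Few chemokine receptor transcripts were seen. Of 22 chemokine receptor genes listed, 13 were found, 11 of them with a mean under 0.1 FPKM, and 0 reached the minimum for testing. CXCR1, CXCR2, CCR2 and CCR6 were not analysed here. CXCR6, the receptor of CXCL16, had means of 0.0856 FPKM in NC and 0.0304 FPKM in siGDF15. The highest level was that of ACKR3, a scavenging receptor for other chemokines, with 0.790 ± 0.0892 (SD) FPKM in NC and 0.856 ± 0.201 (SD) FPKM in siGDF15.

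Inducers of chemokines and inflammatory genes often induced with them formed a list of 20 genes, of which 13 were tested. In siGDF15, 9 were called higher, 2 lower and 2 were not called, with a median log2 fold change of 0.64, beside 30.0% of all tested genes called higher and 31.4% lower. These counts include IL6, which reached the mean of 1 FPKM only through siGDF15, and IL1RAP, which reached it only through NC. The ligands that induce chemokines were low, with IL1A at 0.141 ± 0.0366 FPKM in NC and 0.261 ± 0.0206 FPKM in siGDF15 and TNF at means of 0.00803 and 0.0313 FPKM. Among the called genes, the largest rises were in IL6, SOD2, ICAM1 and BIRC3. IL6, a cytokine of the SASP, had 0.525, 0.406 and 0.599 FPKM in NC and 2.28, 2.25 and 2.49 FPKM in siGDF15, with a log2 fold change of 2.29 ± 0.16 (SE) and an edgeR-adjusted p of 8.2e-06. SOD2, the mitochondrial superoxide dismutase, went from 11.5 ± 0.122 (SD) FPKM to 48.6 ± 2.10 (SD) FPKM, a log2 fold change of 2.19 ± 0.046 (SE) with an edgeR-adjusted p of 1.2e-07. The adhesion molecule gene ICAM1 had a log2 fold change of 1.32 and the inhibitor of apoptosis gene BIRC3 of 1.22, and both were lowest in NC replicate 3, where CXCL1 was highest among NC. The 2 genes called lower, named after their values were seen, were LIF (-0.28) and IL1RAP (-0.39), the latter with means of 1.21 FPKM in NC and 0.859 FPKM in siGDF15. Without NC replicate 1 or without NC replicate 2 that number was 1, since IL1RAP then fell under the minimum for testing.

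**Figure D5:**
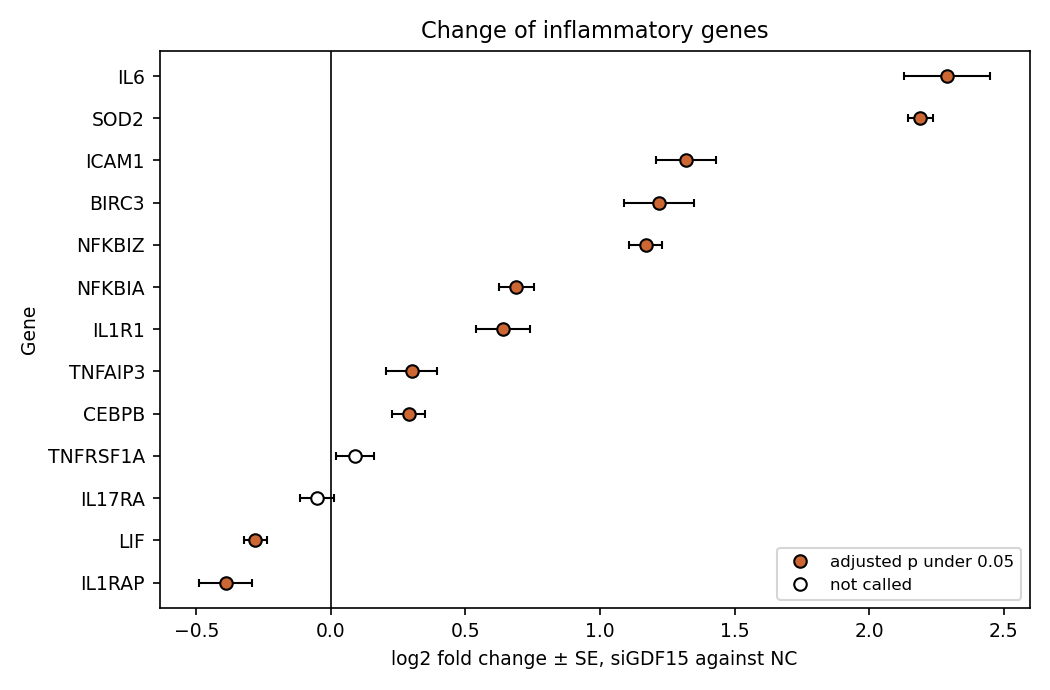
Log2 fold change in siGDF15 against NC, with its standard error, for the 13 tested inducers and inflammatory genes, filled where the adjusted p from edgeR was under 0.05. IL6 and SOD2 lie to the right of 2, near the values of CXCL1 and CXCL2, and LIF and IL1RAP lie left of 0.

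Genes whose products shed or cleave chemokines or regulate their messages formed a list of 12, of which 11 were tested. In siGDF15, 6 were called higher, 2 lower and 3 were not called, beside 30.0% of all tested genes called higher and 31.4% lower, and their median log2 fold change was 0.25. The untested gene was MMP9, a secreted protease, with 1.29, 0.951 and 1.09 FPKM in NC and 0.238, 0.38 and 0.495 FPKM in siGDF15. All its siGDF15 libraries lay below all NC libraries. ZC3H12A, an endoribonuclease that degrades inflammatory messages, rose by a log2 fold change of 0.58 ± 0.089 (SE) with an edgeR-adjusted p of 6.0e-04. ELAVL1, which stabilises messages rich in AU elements, fell from 19.5 ± 1.41 (SD) FPKM to 12.3 ± 0.511 (SD) FPKM, a log2 fold change of -0.56 (adjusted p = 1.1e-04 from edgeR). ADAM17, a sheddase of membrane proteins, had a log2 fold change of 0.47 (adjusted p = 8.3e-04 from edgeR). The peptidase gene DPP4, whose product trims chemokines, had a log2 fold change of 0.40 (adjusted p = 0.013 from edgeR). The DPP4 groups overlapped, with 5.62 FPKM in NC replicate 2 and 5.56 FPKM in siGDF15 replicate 2. ADAM10, the main sheddase of CXCL16, named here for that role after its values were seen, had 9.28, 9.26 and 8.22 FPKM in NC and 11.4, 9.98 and 10.7 FPKM in siGDF15, a log2 fold change of 0.36 (adjusted p = 0.0011 from edgeR).

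As a description over the same 6 libraries, the levels of each chemokine were correlated with all tested genes that carry a symbol, on log2 of FPKM plus 1. Since the libraries form groups that differ in many genes, high values are common. CCL2 had a Pearson correlation of at least 0.95 with 1182 genes, CXCL2 with 1004 and CXCL1 with 795, but CXCL8 with 47 and CXCL16 with 8. Most alike to CXCL1 were ACBD6, TNFAIP1 and DHDDS (r from 0.9977 to 0.9996), and to CXCL2 PLSCR3, KRT8P12 and DAB2 (0.9974 to 0.9995). Most alike to CCL2 were MIR4435-2HG, SERINC2 and AP5Z1 (0.9994 to 0.9997). For CXCL8 these were LY96, PSMF1 and RPL14P1 (0.9900 to 0.9927), and for CXCL16 INTS12, TMEM161A and TRADD (0.9669 to 0.9856). Among the chemokines themselves, CXCL1, CXCL2 and CCL2 had correlations of 0.976 to 0.987 with one another. CXCL8 had 0.797 to 0.815 with the other tested chemokines and CXCL16 0.584 to 0.806.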

How the data were processed

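Per the labels, reads were trimmed with fastp, aligned to GRCh38 with HISAT2 and quantified with StringTie by the authors, with edgeR named for their comparison, and versions and annotation release are not given in the sources used here. The deposited FPKM values are scaled by transcript length and mapped fragments. Expected counts, deposited as whole numbers without normalization, were derived from coverage by the authors, and 4 was the most frequent value from 1 to 20 (15.6%), taken as 1 read pair. Gene starts and ends equalled GENCODE 29 for 17665 of 33014 shared genes, so positions are those of the table. No column of values was left out.

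Genes averaging 1 FPKM or more were tested with edgeR 4.0.16 on the expected counts (TMM, quasi-likelihood F test, two-sided, Benjamini-Hochberg). Standard errors came from the fold change and its F statistic. limma 3.58.1, DESeq2 1.42.0, R 4.3.3, Python 3.11.15, Biopython 1.88 and BLAST 2.17.0 were also used. The fits were tested on simulated data drawn from the real means. Far fewer genes were changed in the simulation than were called in the real data, and equally up and down. How the fits fare under a shift as broad as the real one was not tested. The methods call the 3 libraries per group biological replicates, and the labels do not say how cultures were separated. No more than 0.413% of tested genes had equal counts in any pair of libraries. Floors and intervals cover counting error or spread between libraries only. The chemokines, the other lists and the tests were chosen with earlier results of these data known. All 8 chemokines are named, and from each other list up to 4 called genes with the largest fold change, with exceptions stated. The 3 genes most alike to each tested chemokine are named by Pearson correlation. Alternatives were DESeq2, no TMM, a minimum of 0.1 FPKM, no filter, limma on log2 of FPKM with pseudocounts of 1 and 0.1, counts divided by 4, the replicate block and each library left out.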

Additional observations from a re-analysis of the deposited data

How the results depend on the processing

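CXCL1, CXCL2, CCL2, GDF15 and the sum of CXCL1, CXCL2 and CXCL3 kept their direction and call under all 14 alternatives. The counts in that sum were mostly those of CXCL1. With 1 library left out the log2 fold change was 2.07 to 2.53 for CXCL1, 2.07 to 2.43 for CXCL2, 1.86 to 2.00 for CCL2, 2.06 to 2.48 for the sum and -1.0 to -0.86 for GDF15. Limma on log2 of FPKM plus 1 gave the lowest values of CXCL2 (1.77) and CCL2 (1.57). The CXCL8 call was lost without TMM (log2 fold change 0.31, adjusted p = 0.092), with limma at pseudocounts of 1 (0.21) and 0.1 (0.29), with the replicate block (0.41, adjusted p = 0.054), with a minimum of 0.1 FPKM (0.38) and with no filter (0.36), and with 1 library left out it was 0.33 to 0.50. The cause was not tested. CXCL16 passed the threshold with DESeq2 (0.29), and was 0.24 to 0.38 with 1 library left out. Chemokines called higher numbered 3 to 5 over all alternatives and 0 were called lower. With a minimum of 0.1 FPKM all 8 were tested, and CXCL3 (log2 fold change 1.11, adjusted p = 0.012 from edgeR) was called but not CXCL5 (1.18, adjusted p = 0.21) or CCL20 (0.07, adjusted p = 0.91). Other chemokines called higher numbered 2 with a minimum of 0.1 FPKM or no filter, and 1 to 2 with 1 library left out. Inflammatory genes called lower numbered 4 with no filter and 1 to 2 with 1 library left out. All genes called higher with a log2 fold change of at least 1 numbered 360, but 131 with limma at a pseudocount of 1, 817 with a minimum of 0.1 FPKM and 800 with no filter, where more genes were tested. The share of higher genes among all called genes was 48.9%, and 36.6% without TMM, with a median log2 fold change of -0.099 over tested genes. The difference in share of CCL2 was -0.10 percentage points over the 8 genes and 11 without CXCL1, and that of CXCL2 was 2.22 and 14.7. Deviations of same-numbered libraries from their group means correlated at 0.040, -0.113 and 0.032 for replicates 1 to 3. Those of libraries with unlike numbers correlated at -0.185 to 0.125. No pairing by number was seen, but 3 libraries a group cannot exclude it. The replicate block, which called 3391 genes higher in place of 3565, changed no other call among the 5 tested chemokines. The counts of CXCL3, CXCL5 and CCL20, at 6.0 to 45.0 read pairs a library, limit what can be seen in them.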

Other observations

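CSF2, a growth factor gene for myeloid cells, was at 1.12, 1.16 and 1.14 FPKM in NC and at 0.497, 0.195 and 0.278 FPKM in siGDF15, with no overlap. CSF3 was at 0.0939, 0.0803 and 0.0861 FPKM in NC and was listed at 0 in siGDF15 replicates 1 and 2 and at 0.0103 FPKM in replicate 3, and its NC values rest on 3.8 to 4.0 read pairs a library. Both had a mean under 1 FPKM and were not tested in the main comparison. CD14, a co-receptor for bacterial lipopolysaccharide, had 0.249, 0.242 and 0.107 FPKM in NC and 0.739, 0.682 and 0.592 FPKM in siGDF15. These 3 genes were named after their values were seen.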
